A study of Mus musculus with 6 samples.

Results

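The genes described here are 9 alcohol, aldehyde and retinol dehydrogenase and retinoid-binding genes, taken by name from the 21959 genes of the count table: Adh1, Adh5, Adh7, Aldh1a1, Aldh1a3, Aldh3a1, Aldh2, Rdh10 and Crabp2. The group was chosen because Adh7 is higher in PTX-resistant cells, so the values of the members in that comparison are a description and carry no p-value. The study compared MPC, a mouse gastric adenocarcinoma line of genotype CDH1-/-;Trp53-/-, with MPC-PTX, the same line after over 30 cycles of paclitaxel (PTX), with 3 libraries per line. The study's text calls them MTC and MTC-R. MPC came from gastric organoids of a C57BL/6 J mouse with floxed Trp53, floxed Cdh1 and Mist1-CreER, in which tamoxifen deleted both genes and which then grew as a tumour in a BALB/c nude mouse. Each line is a single clone, and PTX exposure and clone cannot be told apart. Nothing says that the 3 replicates were separate cultures, and p-values then measure only the spread between libraries.

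Retinol, or vitamin A, is turned into the signal retinoic acid by oxidation to retinal and from there to the acid. Retinol dehydrogenases such as Rdh10, and some alcohol dehydrogenases, carry out the first step, and aldehyde dehydrogenases of the Aldh1a group the second. Binding proteins carry retinol and retinoic acid inside the cell, and retinoic acid acts through nuclear receptors. The same enzyme families also oxidise ethanol and the aldehydes that come from lipids and drugs, and in the mouse Adh7 and Aldh3a1 are known as enzymes of the stomach and of surface epithelia.

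The total was 16574580 to 23148182 counts per library, with 13897 to 14295 genes detected. Values are given as CPM, counts scaled to a common library size after TMM normalization. After a filter on low counts, 11795 genes were tested with edgeR's quasi-likelihood test, and a gene was called at a Benjamini-Hochberg adjusted p below 0.05. The 4 epithelial markers (Epcam, Krt8, Krt18, Krt19) summed to 6901 to 7969 CPM in MPC and 3986 to 4093 CPM in MPC-PTX, and all 4 were called lower. Markers of gastric pit cells (Muc5ac, Gkn1, Gkn2, Tff1) and gland cells (Pgc, Cblif, Atp4a, Atp4b, Muc6, Tff2) had at most 2 and 6 counts in any library, and Gkn2, Tff1, Pgc and Tff2 were at 0 in all of them. None of the 10 passed the filter on low counts, so the gastric origin rests on the labels and on the study's account of its gastric organoids. The fibroblast list summed to 9.83 to 10.9 CPM in MPC and 8.59 to 9.74 CPM in MPC-PTX, the leukocyte list, nearly all Cd68, to 11.0 to 12.5 and 9.21 to 10.3 CPM, and the endothelial list to 2.58 to 2.98 and 2.21 to 2.79 CPM. The part of such cells in the results was not tested. The MPC libraries were less alike than the MPC-PTX libraries, with a median absolute log2 difference of 0.155 to 0.286 between pairs against 0.067 to 0.081, and replicate 3 was farthest from replicate 1. Without MPC replicate 3 the fit called 3020 genes higher and 3227 lower, and without MPC-PTX replicate 1 it called 803 and 1122, against 1668 and 1841 with all libraries.

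RefSeq promoters of GRCm38.p6 matched 4 of the 9 members. Those of Adh7, Adh5 and Aldh1a1 are shown because these members were higher, nearly level and lower in MPC-PTX, and because Adh7 and Adh5 lie in the same gene cluster. Each run is the stretch before the start of transcription, 5′ to 3′ on the plus strand, and capitals mark the matched motifs. The windows are chr3:138217523-138217759 for Adh7, chr3:138442843-138443092 for Adh5 and chr19:20492333-20492582 for Aldh1a1.
Adh7: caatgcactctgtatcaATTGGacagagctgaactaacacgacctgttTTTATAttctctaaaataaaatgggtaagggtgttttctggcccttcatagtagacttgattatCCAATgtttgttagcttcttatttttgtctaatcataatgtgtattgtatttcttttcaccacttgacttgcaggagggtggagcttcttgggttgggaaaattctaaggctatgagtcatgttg
Adh5: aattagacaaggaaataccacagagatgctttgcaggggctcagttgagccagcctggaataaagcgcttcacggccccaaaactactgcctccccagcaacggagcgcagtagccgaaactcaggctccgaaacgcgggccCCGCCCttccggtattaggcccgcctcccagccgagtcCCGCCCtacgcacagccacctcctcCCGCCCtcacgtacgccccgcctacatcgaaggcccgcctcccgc
Aldh1a1: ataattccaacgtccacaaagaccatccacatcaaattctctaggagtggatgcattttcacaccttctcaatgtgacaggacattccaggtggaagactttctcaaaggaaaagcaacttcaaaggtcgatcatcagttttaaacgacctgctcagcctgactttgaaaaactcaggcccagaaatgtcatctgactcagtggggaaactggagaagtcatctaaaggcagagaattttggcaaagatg
The motifs searched on both strands were TATAAA for the core promoter box bound by TBP, CCAAT for NF-Y, GGGCGG for Sp1, TGACNNNGC for the core of the antioxidant response element, GCGTG for the core of the xenobiotic response element and AGGTCA for the nuclear receptor site. No matches overlapped each other. The Adh7 window, of 237 bases, held 2 CCAAT matches, 1 on each strand, and 1 TATAAA match on the minus strand, with its bases at -202 to -197 from the RefSeq start. The Adh5 window held 3 GGGCGG matches, all on the minus strand. None of the 6 motifs was found in the Aldh1a1 or Adh1 window. The RefSeq start used for Adh1 lies 16594 bases from its GENCODE M21 start, within the gene. That of Aldh1a1, the nearer of 2 RefSeq starts, lies at -132 bases from its GENCODE M21 start. Among all 32851 promoter windows of 250 bases, CCAAT was present in 33.8%, GGGCGG in 32.7%, TATAAA in 12.4%, GCGTG in 28.2%, AGGTCA in 14.0% and TGACNNNGC in 10.2%. The Adh7 window had a GC content of 37.1% with 1 CpG, the Aldh1a1 window 42.8% with 3 and the Adh5 window 63.6% with 21, against a median of 52.4% and 6 over all windows. A match is a description of the letters and shows no binding.

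Among the alcohol dehydrogenases, Adh7 was higher in MPC-PTX, Adh5 was nearly level and Adh1 was barely detected. Adh7 (ENSMUSG00000055301; GENCODE M21, GRCm38, chromosome 3, 138217760 to 138233382) encodes the alcohol dehydrogenase of the stomach lining, which oxidises ethanol and retinol. It had 77, 38 and 25 counts in MPC and 780, 835 and 604 in MPC-PTX, or 4.09, 1.96 and 1.20 CPM against 33.3, 37.6 and 35.9 CPM. Every MPC-PTX library was above every MPC library, and the lowest MPC-PTX library was 8.14-fold above the highest MPC library. The log2 fold change was 3.89 with a standard error of 0.36, a fold of 14.8. Its MPC libraries spread more than those of any other tested member, with a coefficient of variation of 62.0% in MPC and 6.11% in MPC-PTX. Leaving out MPC replicate 1, the highest of the 3, moved the log2 fold change to 4.50, and leaving out MPC replicate 3, the lowest, to 3.51. Markers of stratified or basal epithelium, where Adh7 and Aldh3a1 are also known, did not move one way: of the list of 4, Krt14 and Trp63 were called higher, Krt13 was called lower, and Krt5 had at most 1 count in a library. Krt14 had 15, 4 and 9 counts in MPC and 690, 641 and 523 in MPC-PTX, and Krt13 went from 21.4 to 15.5 CPM. The list summed to 19.3 to 25.7 CPM in MPC and 47.0 to 48.2 CPM in MPC-PTX, a difference that came almost wholly from Krt14. The part of such cells in the Adh7 and Aldh3a1 values was not tested. In bulk RNA, fewer cells that express a gene and less RNA per cell cannot be told apart.

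Adh5 (ENSMUSG00000028138; chromosome 3, 138443093 to 138455499) encodes the widely expressed enzyme that clears formaldehyde bound to glutathione. It was at 212, 178 and 180 CPM in MPC and 178, 181 and 174 CPM in MPC-PTX. The groups overlapped, and the log2 fold change was -0.10 with a standard error of 0.08. It was called lower only without MPC replicate 3, at a log2 fold change of -0.18. Adh1 (ENSMUSG00000074207; chromosome 3, 138260991 to 138290698), the main alcohol dehydrogenase of the liver, had 2, 1 and 0 counts in MPC and 4, 3 and 1 in MPC-PTX and did not pass the filter. Its ratio of MPC-PTX to MPC was 2.52, with a 95% exact binomial (Clopper-Pearson) interval from 0.605 to 14.8 that covers counting error only. The interval spans both a lower and a higher level in MPC-PTX, so no difference in Adh1 was resolved at these counts. Of the CPM per kb of exon summed over the 3 alcohol dehydrogenases, Adh7 held 2.68%, 1.55% and 0.946% in the MPC libraries and 21.0%, 22.9% and 22.7% in the MPC-PTX libraries.

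**Figure D1:**
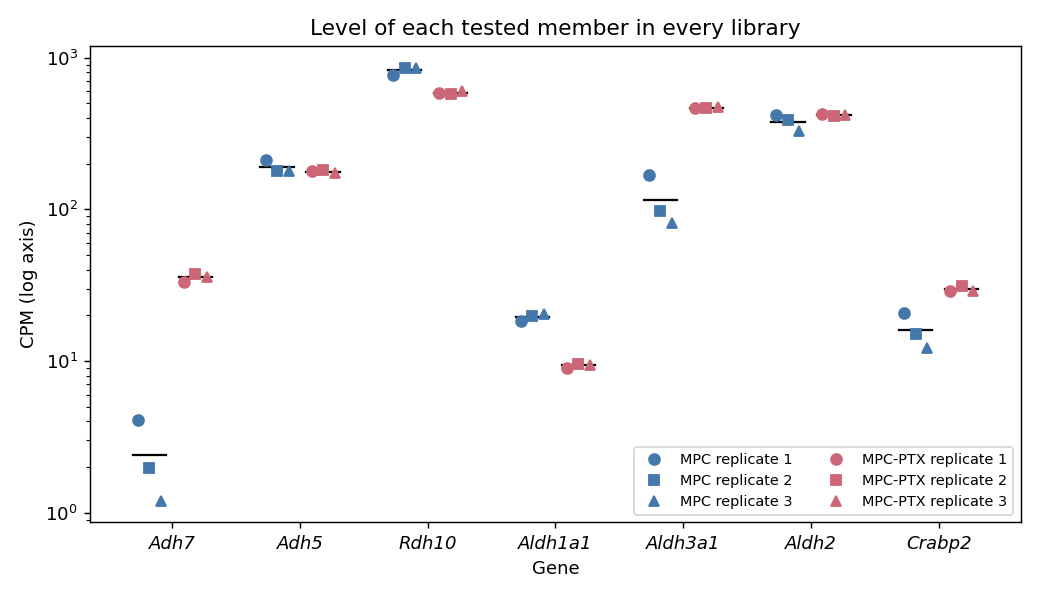
CPM of the 7 members that passed the filter (log vertical axis) in each library of MPC (blue) and MPC-PTX (red), with the marker shape giving the replicate and a black line the mean of the line. Adh7 and Aldh3a1 are the members with the widest gap between the lines, and the MPC-PTX points lie closer together than the MPC points for each of the 7 members.

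Adh7, Adh1 and Adh5 belong to one cluster of alcohol dehydrogenase genes. The other cluster genes Adh4, Adh6a and Adh6b had at most 1 count in any library. Of 12 tested genes whose starts lie within 1 Mb of that of Adh7, 1 was called higher and 2 lower. Over all tested genes 14.1% were called higher and 15.6% lower. The 12 had a median log2 fold change of 0.03, against -0.01 over the 604 tested genes of chromosome 3. Upstream, at -74.3 kb, Trmt10a, a tRNA methyltransferase gene, had a log2 fold change of 0.44. Mttp, at -72.8 kb, encodes a lipid transfer protein and had one of -1.04. Adh5, 225 kb downstream, was not called. The 12 lay between -1.04 and 0.44. The same count was made around the members outside this cluster. It was 1 higher and 0 lower of 8 for Rdh10, and 2 and 0 of 13 for Aldh1a3. For Aldh2 it was 2 and 5 of 32, and for Aldh1a1 0 and 2 of 4. Nothing is read from the counts around any member. Of 29 tested genes within 1 Mb of Aldh3a1, 7 were called higher and the others were not called, with a median log2 fold change of 0.17 against 0.09 on chromosome 11, and one of them, Slc47a1 at 171 kb, had a log2 fold change of 2.94. Of 34 around Crabp2, 2 were higher and 9 lower, and Nes, at 22.4 kb, had one of 2.18. Slc47a1, a transporter gene, and Nes, an intermediate filament gene, were picked after their values were seen. Falls of single neighbours, picked in the same way, were also present. Oas1g, at 706 kb from Aldh2, had a log2 fold change of -3.89. Pear1, at -124 kb from Crabp2, had one of -1.01.

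**Figure D2:**
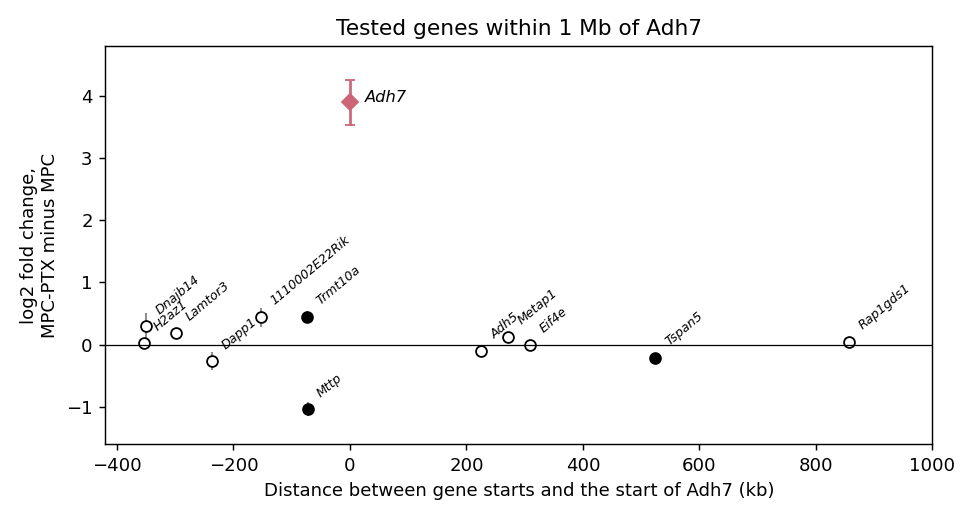
Log2 fold change (MPC-PTX minus MPC, vertical axis, bars give the standard error) of Adh7 (red diamond) and of the 12 tested genes within 1 Mb, against the distance of their starts from the Adh7 start in kb, with negative values upstream. Filled circles are genes called at an adjusted p below 0.05. Adh7 stands at 3.89 while its neighbours lie between -1.04 and 0.44.

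Among the aldehyde dehydrogenases, Aldh3a1 was higher and Aldh1a1 lower in MPC-PTX, and Aldh2 was nearly level. Aldh3a1 (ENSMUSG00000019102; chromosome 11, 61207537 to 61218421) encodes an enzyme that oxidises aromatic and lipid-derived aldehydes. It had 3159, 1895 and 1694 counts in MPC and 10966, 10313 and 7976 in MPC-PTX, or 168, 97.7 and 81.4 CPM against 468, 465 and 474 CPM. The lines did not overlap, and the MPC-PTX libraries lay within 1.02-fold of each other while the MPC libraries spread over 2.06-fold. The log2 fold change was 2.02 with a standard error of 0.26, a fold of 4.06, and ranged from 1.77 to 2.39 over the 13 alternative settings. Aldh3a1 held 38.2% to 50.2% of the CPM per kb summed over the 4 aldehyde dehydrogenase members in MPC and 74.1% to 74.6% in MPC-PTX.

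Aldh1a1 (ENSMUSG00000053279; chromosome 19, 20492715 to 20643465) encodes a cytosolic enzyme that makes retinoic acid from retinal. It was at 18.2, 19.7 and 20.4 CPM in MPC and 9.06, 9.60 and 9.39 CPM in MPC-PTX. The lowest MPC library was 1.90-fold above the highest MPC-PTX library. The log2 fold change was -1.06 with a standard error of 0.09, and it stayed between -1.10 and -1.02 over the 13 alternatives. Aldh1a7, a near copy of Aldh1a1 that starts 235 kb further on, may share reads with it, since how multiply mapping reads were counted is not given in the sources used here. The summed level of the pair was 22.3 ± 1.21 CPM (SD, n = 3) in MPC and 10.3 ± 0.464 CPM (SD, n = 3) in MPC-PTX. Aldh1a3 (ENSMUSG00000015134; chromosome 7, 66390890 to 66427517), another enzyme that makes retinoic acid, had 0, 0 and 3 counts in MPC and 0, 2 and 1 in MPC-PTX, too few to compare.

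Aldh2 (ENSMUSG00000029455; chromosome 5, 121566027 to 121593824) encodes the mitochondrial enzyme that oxidises acetaldehyde. It was at 421, 386 and 327 CPM in MPC and 423, 413 and 416 CPM in MPC-PTX. MPC replicate 1 lay within the range of the MPC-PTX libraries. The log2 fold change was 0.14 with a standard error of 0.09, and it went to -0.003 without MPC replicate 3. After GC content and length were corrected for, it was 0.23, and Aldh2 was then called higher.

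Rdh10 (ENSMUSG00000025921; chromosome 1, 16105774 to 16133734) encodes the membrane enzyme that oxidises retinol to retinal. It was at 773, 857 and 860 CPM in MPC and 584, 580 and 603 CPM in MPC-PTX. The lines did not overlap, and the log2 fold change was -0.50 with a standard error of 0.07, so that MPC-PTX was at 0.709 of the MPC level. Crabp2 (ENSMUSG00000004885; chromosome 3, 87948666 to 87953376) encodes a protein that carries retinoic acid to its receptors in the nucleus. It was at 20.6, 15.0 and 12.2 CPM in MPC and 29.1, 31.0 and 29.0 CPM in MPC-PTX. Here too the lines did not overlap, and the log2 fold change was 0.90 with a standard error of 0.18. It was 0.69 without MPC replicate 3 and 1.13 without MPC replicate 1.

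Of the 9 members, 7 passed the filter on low counts. In the fit over all genes 3 of these were called higher (Adh7, Aldh3a1 and Crabp2) and 2 lower (Aldh1a1 and Rdh10), where 14.1% of all tested genes were called higher and 15.6% lower. The study's own rule asks for an unadjusted p below 0.05 and more than a 2-fold difference. Here this rule was applied to the edgeR fit, whereas the study used DESeq, so the calls are not the study's own. By it 2 members were higher and 1 lower, where 3.77% of all tested genes were higher, 4.34% lower and 8.11% either. The libraries of the lines did not overlap for 3 higher and 2 lower members, as for 24.2% and 22.7% of all tested genes, 46.9% in all. Since the group was chosen for the rise of one member in this comparison, nothing is read from these counts. The median log2 fold change of the 7 members was 0.14, against 0.04 over all tested genes.

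**Figure D3:**
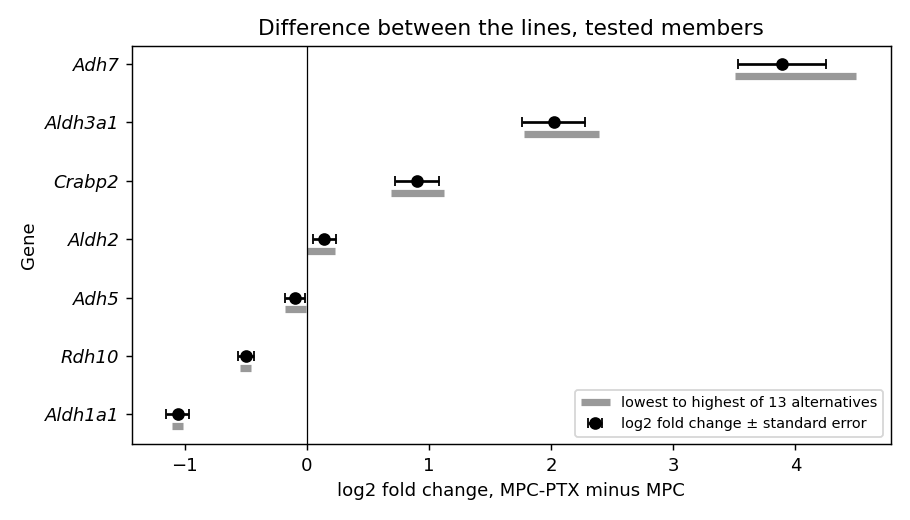
Log2 fold change of the 7 tested members (horizontal axis, MPC-PTX minus MPC) with its standard error (black) and the lowest to highest value over 13 alternative settings (grey). Adh7, Aldh3a1 and Crabp2 lie above 0, Rdh10 and Aldh1a1 below 0, and the grey bar of Aldh2 ends at -0.003.

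Several members followed the same order among the MPC libraries. Adh7, Aldh3a1, Crabp2 and Aldh2 were each highest in MPC replicate 1 and lowest in MPC replicate 3, by 3.41-fold, 2.06-fold, 1.69-fold and 1.29-fold. Adh5 was also highest in replicate 1, whereas Aldh1a1 and Rdh10 were lowest there. MPC replicate 1 was the highest MPC library for 40.4% of all tested genes and for 40.9% of the 445 genes that were higher in MPC-PTX by the study's rule. A library effect of GC content and transcript length, fitted over 11776 genes, was -0.22 in MPC replicate 1 and 0.24 in MPC replicate 3 on the log2 scale at the values of Adh7, opposite to the order of the Adh7 levels. At the values of Aldh3a1 it was 0.15 and -0.11, in the same order as its levels. With this correction the log2 fold change was 3.80 for Adh7, 2.12 for Aldh3a1 and 0.99 for Crabp2.

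Levels of different genes were compared as CPM per kb of exon. The length merges all annotated exons of a gene and may exceed that of the RNA present. Ranges over libraries do not cover this, so the order between genes is approximate. In MPC the order was Rdh10 (199.6 ± 11.9), Aldh2 (73.7 ± 9.25), Aldh3a1 (59.5 ± 23.7), Adh5 (35.1 ± 3.56), Crabp2 (12.1 ± 3.24), Aldh1a1 (3.94 ± 0.227) and Adh7 (0.638 ± 0.396), all as mean ± SD with n = 3. The ranges of Aldh2 and Aldh3a1 overlapped in MPC, and all other neighbours among these 7 were apart. In MPC-PTX, Aldh3a1 came first with 242 ± 2.31 CPM per kb, ahead of Rdh10 with 142 ± 2.93 and Aldh2 with 81.4 ± 1.07. Adh7 stood at 9.40 ± 0.575 CPM per kb there, above Aldh1a1 with 1.89 ± 0.0558, so this pair changed places between the lines as Aldh3a1 and Rdh10 did. Adh1 and Aldh1a3 were last in both lines, below 0.1 CPM per kb in every library.

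**Figure D4:**
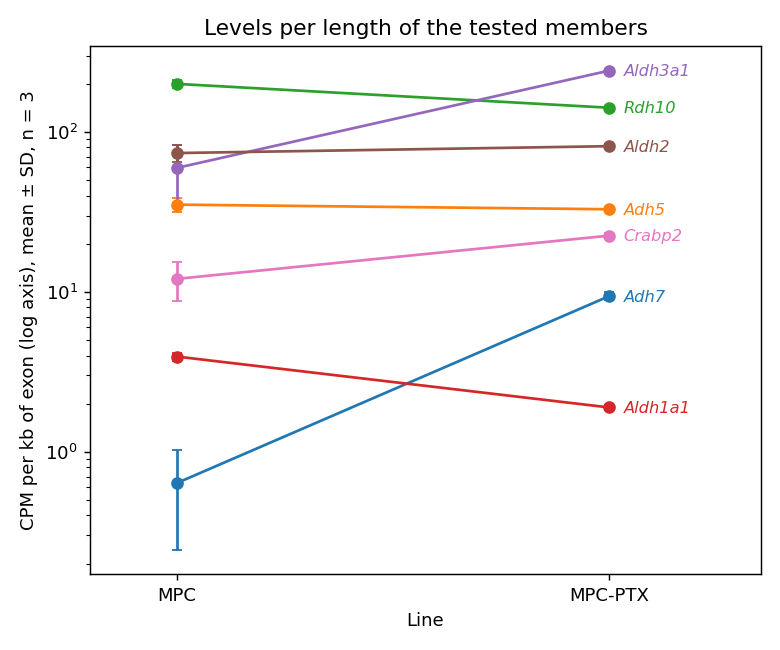
Mean CPM per kb of exon of the 7 tested members (log vertical axis, bars give the SD, n = 3) in MPC and MPC-PTX, with a line joining the values of each gene. The line of Aldh3a1 crosses that of Rdh10, and that of Adh7 crosses that of Aldh1a1.

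Other genes of these families and of the retinoid pathway were taken from lists chosen by function, with earlier results of these data known. Of 77 such genes 46 were tested, and 8 of them rose and 11 fell, or 41.3% of those tested where 29.7% of all tested genes were called in either direction. Their median log2 fold change was -0.10. Since earlier results were known, nothing is read from these counts or from those of the single lists below. The share of 29.7% over all tested genes is the background for each of those lists too. Of the others, 18 genes had at most 3 counts in each line. Without MPC-PTX replicate 2 or replicate 3 the number that rose was 5, because Aldh3a2, Aldh7a1 and Rarb were then not called, and without MPC replicate 1 it was 12.

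Of 15 tested genes among the other aldehyde dehydrogenases, 5 fell and 2 rose. Aldh1l1, a folate-dependent enzyme that oxidises formyl groups, had 209, 229 and 210 counts in MPC and 3, 1 and 4 in MPC-PTX, and its log2 fold change was -6.35 with a standard error of 0.29 (edgeR adjusted p = 2.22e-05). Aldh1a2, the third gene for an enzyme that makes retinoic acid, was at 24.8, 24.0 and 21.7 CPM in MPC and 7.43, 7.30 and 6.83 CPM in MPC-PTX, and fell from 23.5 ± 1.61 to 7.19 ± 0.316 CPM (SD, n = 3 each; log2 fold change -1.71, edgeR adjusted p = 4.47e-05). Aldh1a7 fell from 2.88 ± 0.361 to 0.937 ± 0.282 CPM (SD, n = 3 each; edgeR adjusted p = 0.00362), within the limit on shared reads given above. Aldh3b1 and Aldh3b2, for enzymes that act on lipid aldehydes, had log2 fold changes of -1.25 and -2.81 (edgeR adjusted p = 0.000432 and 0.000609). Aldh3a2, for a fatty aldehyde dehydrogenase, rose by a log2 fold change of 0.22 (edgeR adjusted p = 0.0380), and Aldh7a1, a lysine breakdown gene, by 0.32 (edgeR adjusted p = 0.0142). Aldh3a2 was called under only 4 of the 13 alternatives, and Aldh7a1 was not called when any MPC-PTX library was left out. Aldh3a2 starts 59.9 kb from Aldh3a1.

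Among the other retinol dehydrogenases and retinal reductases, 2 of 8 tested genes fell. Dhrs3, whose product turns retinal back into retinol, had a log2 fold change of -0.42 (edgeR adjusted p = 0.00884), and Dhrs4, for a reductase of the same family, one of -0.40 (edgeR adjusted p = 0.00531). Dhrs3 was not called without MPC-PTX replicate 2 (edgeR adjusted p = 0.0537). Neither of the 2 tested other alcohol dehydrogenase genes was called, with log2 fold changes of 0.31 for Adhfe1 and 0.03 for Akr1a1, which encodes an aldehyde reductase.

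Of 6 tested genes of retinoid uptake, binding and storage, 3 rose and 1 fell. Rbp4, for the carrier of retinol in blood, rose from 40.5 ± 5.28 to 130.7 ± 0.436 CPM (SD, n = 3 each; log2 fold change 1.69, edgeR adjusted p = 4.67e-05). Stra6, for the membrane receptor that takes up retinol from Rbp4, rose by a log2 fold change of 0.46 (edgeR adjusted p = 0.00336). Rbp2, a retinol-binding protein gene of the intestine, had one of -0.83 (edgeR adjusted p = 0.00965).

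The receptor and breakdown list had 1 rise and 1 fall among 7 tested genes. Rarb, for a retinoic acid receptor, rose by a log2 fold change of 0.57 (edgeR adjusted p = 0.0436), a call that was lost in 5 of the 6 fits that left out a library. Cyp26b1, for an enzyme that breaks down retinoic acid, fell from 2.39 ± 0.697 to 0.837 ± 0.108 CPM (SD, n = 3 each; log2 fold change -1.5, edgeR adjusted p = 0.00840). The receptors Rara, Rarg, Rxra and Rxrb had log2 fold changes between -0.19 and 0.10 and were not called, although Rarg and Rxra were called lower without MPC replicate 3. Rxra was also called lower with the correction for GC content and length (log2 fold change -0.19, edgeR adjusted p = 0.0480). Of 8 tested genes known to respond to retinoic acid, some of which stand in the lists above, 4 rose, Rarb and Stra6 among them, and 3 fell (Tgm2, Cyp26b1 and Dhrs3). Tgm2, for tissue transglutaminase, fell from 68.3 ± 5.79 to 19.5 ± 1.46 CPM (SD, n = 3 each; log2 fold change -1.81, edgeR adjusted p = 3.81e-05).

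Aldh3a1 is also known as a gene induced through the aryl hydrocarbon receptor, so genes of that receptor's response were listed. Of 5 tested genes, Tiparp, an ADP-ribosyltransferase gene, rose by a log2 fold change of 1.07 (edgeR adjusted p = 0.00938), and the quinone reductase gene Nqo1 had one of -0.77 (edgeR adjusted p = 0.00504). Ahr itself and Arnt had log2 fold changes of -0.02 and 0.05 and were not called. Cyp1b1 had one of 0.35 and was called higher only without MPC replicate 3 or with the correction for GC content and length. Ahrr and Ugt1a6b did not pass the filter with all libraries, and neither was called when all libraries were kept without that filter. Without MPC replicate 1 both were called higher, at log2 fold changes of 2.00 and 6.27 (edgeR adjusted p = 0.0423 and 0.00882). Ahrr was also called higher without MPC-PTX replicate 1, at 1.97 (edgeR adjusted p = 0.0449). Both genes had low counts, so the size of these log2 fold changes is uncertain and nothing is read from them. Cyp1a1 had 0, 0 and 0 counts in MPC and 0, 2 and 0 in MPC-PTX.

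**Figure D5:**
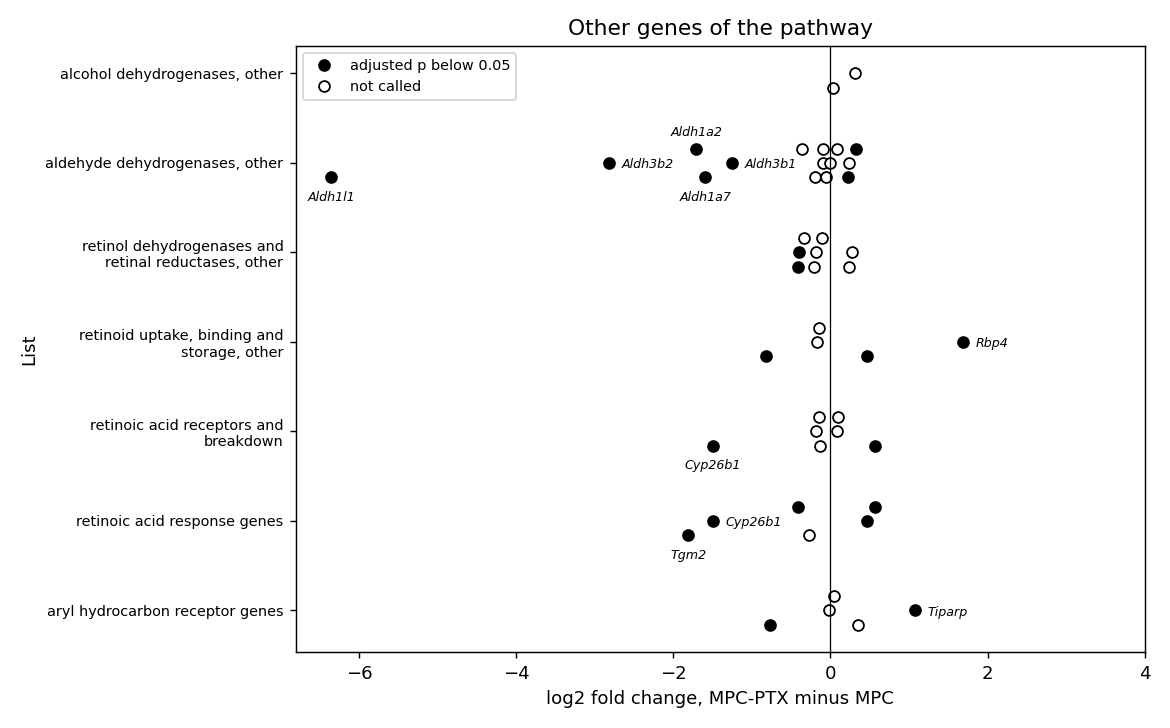
Log2 fold change (MPC-PTX minus MPC, horizontal axis) of the tested genes of the 7 lists that are reported here, 1 point a gene, where filled points are genes called at an adjusted p below 0.05 and names are given for those with an absolute log2 fold change above 1, no overlap between the lines and at least 1 CPM. The aldehyde dehydrogenase points with names all lie below 0, from -1.25 to -6.35, and Rbp4 and Tiparp lie above 0 at 1.69 and 1.07.

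The genes whose profile over the 6 libraries was most like that of Adh7 were Cacng7, Slpi, Sulf2, Tcstv1 and Tubb3. The measure was the root mean square difference of log2 CPM, each gene centred on its own mean, and it was 0.319, 0.431, 0.432, 0.508 and 0.532 for these genes. Centring was over all 6 libraries, so the measure takes in the rise in MPC-PTX for which Adh7 was chosen. These 5 genes had log2 fold changes from 2.94 to 5.53, and nothing further is read from their likeness to Adh7. Slpi, a protease inhibitor gene, had 30, 20 and 16 counts in MPC and 349, 232 and 190 in MPC-PTX. Tubb3, a beta-tubulin gene known from neurons, had 52, 20 and 20 counts in MPC and 308, 255 and 194 in MPC-PTX. Cacng7, Sulf2 and Tcstv1 had 5, 3 and 2 counts in the 3 MPC libraries together, so their log2 CPM in MPC depends on the prior count of 2 added before taking logarithms.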

How the data were processed

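Poly-A selected RNA of MPC and MPC-PTX was sequenced as 3 libraries per line, all labelled batch 1. The authors used fastp 0.22.0 for read filtering and HISAT2 for mapping, and deposited raw counts per gene. The genome release, counting tool and use of strand are not given in the sources used here, so overlapping and near-identical genes are uncertain. No value differed between the series table and the tables of single libraries. Genes were filtered with filterByExpr (minimum count 10), scaled with TMM and tested by quasi-likelihood in edgeR 4.0.16 (robust glmQLFit, then glmQLFTest; R 4.3.3) without covariates, with Benjamini-Hochberg adjustment over 11795 genes. The standard error is the log2 fold change divided by the square root of F. An exact permutation test of 3 against 3 libraries cannot give a p below 0.1, so none was run. The script was tested on simulated data. GENCODE M21 (GRCm38) gave positions and exon lengths through the Ensembl identifiers.

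The members and lists were chosen with earlier results of these data known. Named genes were the 9 members, list genes with an adjusted p below 0.05, an absolute log2 fold change above 1, no overlap and at least 1 CPM, and the 5 genes nearest to Adh7 in profile; other list genes are given as examples. Some list genes enter the counts but are not reported here. Cdh1 had 2217 to 3068 counts and Trp53 63 to 142 in a library, and counts per gene do not show the deleted exons. The alternatives were DESeq2 1.42.0, DESeq2's size factors, library size alone, 2 other filters, a replicate block, leaving out each library in turn, and a loess correction (span 0.3) for GC content and transcript length.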

Additional observations from a re-analysis of the deposited data

How the results depend on the processing

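Adh7, Aldh3a1, Crabp2, Aldh1a1 and Rdh10 kept their direction and call under all 13 alternatives, as did the 10 list genes that met the rule for naming wherever they were tested; Aldh1l1 and Aldh3b2 were not tested when 10 counts were needed in every library. The log2 fold change ranged from 3.51 to 4.50 for Adh7, 0.69 to 1.13 for Crabp2 and -0.54 to -0.46 for Rdh10. Over the fits that left out a library, the genes called at an adjusted p below 0.05 numbered 803 to 3020 higher and 1077 to 3227 lower, and the list genes that rose 5 to 12. The correction for GC content and length called 2623 genes higher. With 10 counts in every library, 11109 genes were tested, and 246 were higher and 338 lower by the study's rule. The cause of these shifts was not tested.

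Same-numbered libraries had correlations of 0.15, -0.02 and 0.17 between their deviations from the line means. Libraries with different numbers had correlations from -0.23 to 0.15. The labels state no pairing, and the numbers were not taken as pairs in the main fit. With the replicate block the log2 fold change of Adh7 was 3.95, 7 list genes rose and 11 fell, and Aldh3a2 was not called (edgeR adjusted p = 0.0657). Counts limit Adh1, Aldh1a3 and the list genes that were not tested.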
